A study of Saccharomyces cerevisiae with 11 samples.

Results

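Heavy and light nuclease digestion were compared in 1 yeast strain, to show which nucleosomes and which genes gain or lose coverage when more enzyme is used. The 4 libraries, out of 11 in the series, were those of the Saccharomyces cerevisiae strain yTL1245 whose file names give the dose codes of heavy or light digestion. Their sample labels gave the same dose. Heavy digestion (2 libraries) used 0.1875 U of micrococcal nuclease, and light digestion (2 libraries) used 0.01171875 U, a dose 16 times lower. The strain has the BY4742 background and carries an auxin-inducible degron, a tag for induced protein degradation, on both topoisomerases, Top1 and Top2. It does not carry OsTIR1, the plant F-box protein that the degron needs, and no auxin was given, so both doses share the tagged but undepleted topoisomerases. Cells grew in galactose medium, were fixed with paraformaldehyde and were digested as spheroplasts. The labels do not say whether the replicates of a dose came from separate cultures, so p-values measure only the spread between these libraries, which may be technical.

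Micrococcal nuclease cuts accessible DNA, mainly the linkers between nucleosomes, and then trims and finally degrades what is less protected. Light digestion therefore samples the DNA that is cut out of chromatin first, while heavy digestion leaves the particles that resist longest. In yeast, promoters have a nucleosome-depleted region flanked by well-placed nucleosomes, called +1 on the side of the gene. Particles seen upstream after light digestion and lost after heavy digestion have been called fragile nucleosomes, although non-histone complexes can also protect DNA. No histone was measured here: a nucleosome below is a maximum of fragment coverage, placed on the mean of the 4 libraries.

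The heavy libraries held 31178329 and 11182766 fragments, and the light libraries 18268564 and 13798850. Mean nuclear coverage without the ribosomal DNA lay between 122.3 and 331.7 fragments per base. All levels below are relative coverage, the fragments per base divided by that mean, so a value of 1 is the library average and a rise at some places must be balanced by a fall elsewhere. Fragments averaged 133.6 and 140.3 bp in the heavy libraries, against 161.1 and 160.3 bp in the light libraries; the difference of -23.8 bp had an exact permutation p of 0.3333 (two-sided), the smallest that 2 against 2 libraries allow. Log2 relative coverage of nucleosomes correlated between the replicates of a dose with r of 0.945 (heavy) and 0.952 (light), and between libraries of different dose with r of 0.0832 to 0.32, across nucleosomes that are not independent of each other. Among the marker genes mutated in BY4742, LEU2 and URA3 had no coverage over the ORF in any of the 4 libraries and LYS2 had at most 0.00233, while HIS3, whose allele in this background is a partial deletion, stood at 0.364 and 0.385 in the heavy and at 0.269 and 0.211 in the light libraries.

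Promoters, taken as the 250 bp upstream of the start codon, lost coverage with more nuclease and open reading frames (ORFs) gained it. The median promoter had a relative coverage of 0.800 and 0.880 in the heavy libraries, against 1.44 and 1.48 in the light libraries. The median ORF body had 1.06 and 1.04 in the heavy libraries, against 0.813 and 0.760 in the light libraries. Neither measure overlapped between the doses. Promoters with a relative coverage under 0.5 made up 11.2% and 7.47% of all in the heavy libraries, against 0.738% and 1.17% in the light libraries. Promoters above 2 made up 0.117% and 0.101% in the heavy libraries, against 12.7% and 20.9% in the light libraries. On the log2 scale, mean promoter coverage over mean body coverage was -0.38 and -0.22 in the heavy libraries, against 0.75 and 0.91 in the light libraries, a difference of -1.13 (exact permutation p 0.3333, two-sided).

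With limma, 4679 of 5956 promoters were lower in heavy than in light digestion (78.6% of those tested) and 187 were higher (3.14%), at an adjusted p under 0.05. The median log2 change was -0.77. Promoters called lost, with a log2 change of -1 or less, numbered 1945 (32.7%), and those called gained, with 1 or more, numbered 13 (0.218%). Among 5957 bodies, of which 79.5% passed the threshold in either direction, 4175 were higher (70.1%) and 558 were lower (9.37%), with a median log2 change of 0.38; 130 were gained (2.18%) and 100 were lost (1.68%). A lower promoter and a higher body stood together in 3198 of 5956 genes, and both were lower in 463. Scaling each library to its median ORF body in place of the nuclear mean shifts the median log2 change by -0.386 for promoters and -0.372 for bodies. The split is then 5467 lower and 48 higher promoters, and 1868 lower and 1806 higher bodies, so the prevailing rise of bodies holds relative to the nuclear mean and not relative to the median body. With a pseudocount of 1 in place of 0.1, 246 promoters were lost and 0 bodies gained. A pseudocount as large as the library average damps the change at ordinary levels as well as at low ones.

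**Figure D1:**
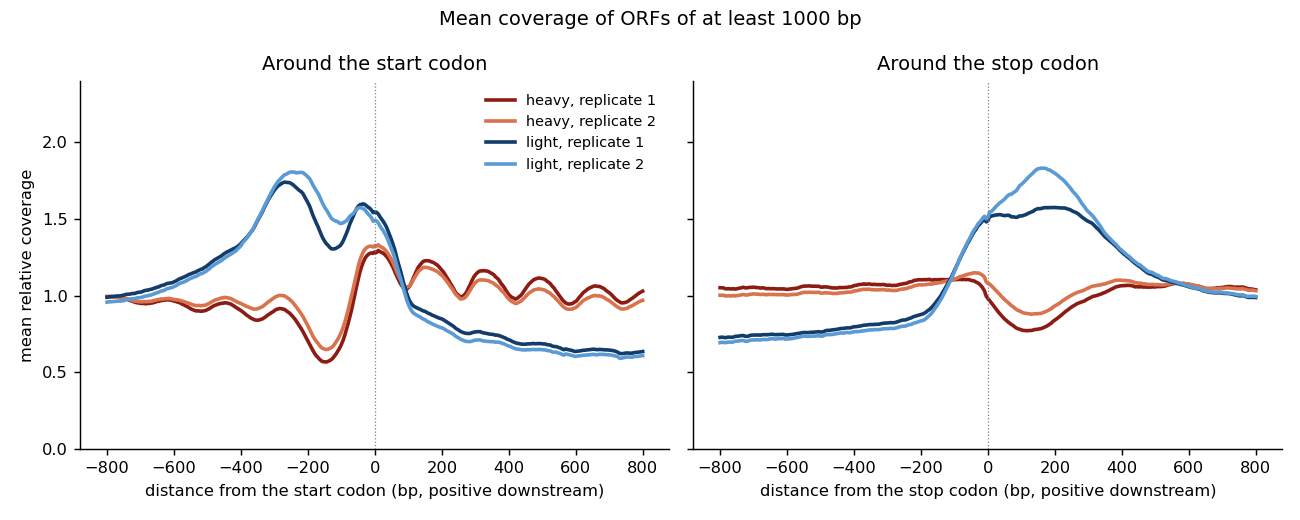
Mean relative coverage (vertical axis) of the 4 libraries against distance in bp from the start codon (left) and the stop codon (right), over 3570 ORFs of at least 1000 bp. The 2 heavy libraries dip upstream of the start and after the stop, where the 2 light libraries peak, and stand above the light libraries inside the ORF.

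Along genes, heavy digestion was low where light digestion was high. Over 3570 ORFs of at least 1000 bp, the stretch from 200 to 100 bp upstream of the start codon averaged 0.614 and 0.700 in the heavy libraries, against 1.40 and 1.60 in the light libraries. From 300 to 700 bp inside the ORF, the mean was 1.05 and 1.00 in the heavy libraries, against 0.685 and 0.646 in the light libraries. Gene ends were low after heavy digestion as well: from 50 to 200 bp past the stop codon the mean was 0.796 and 0.906 in the heavy libraries, against 1.54 and 1.76 in the light libraries. That stretch can also lie upstream of the next gene, and such cases were not taken out of the mean. In each of these stretches the 2 doses did not overlap. Inside the ORF the mean profile of both heavy libraries shows regular nucleosome peaks, which are faint in the light libraries.

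Single nucleosomes showed where the changes lay. Of 65986 tested, 72.3% passed the threshold in either direction; 36543 were higher in heavy digestion (55.4%) and 11154 were lower (16.9%) by limma at an adjusted p under 0.05. Gained nucleosomes numbered 11221 (17%) and lost ones 3930 (5.96%). Lost nucleosomes had a median relative coverage of 0.234 and 0.320 in the heavy libraries, against 1.98 and 2.33 in the light libraries. Gained nucleosomes had a median of 1.09 and 0.967 in the heavy libraries, against 0.408 and 0.344 in the light libraries. Gained ones were thus at the library average after heavy digestion and were under-represented after light digestion, whereas lost ones were over-represented after light digestion. Scaling to the median ORF body gave 21437 higher and 19304 lower nucleosomes, with 7390 lost and 3387 gained.

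By position, ORF interiors (more than 150 bp from either end) held 61.0% of all tested nucleosomes and 90.9% of the gained ones. Of 40274 interior nucleosomes, 10202 were gained and 65 lost, with a median log2 change of 0.69. The stretch up to 250 bp upstream of a start codon held 8.77% of all nucleosomes and 34.9% of the lost ones: 1370 of 5785 were lost, and the median was -0.39. Nucleosomes up to 250 bp past a stop codon, and not upstream of another gene by the same distance, made up 5.86% of all and 19.8% of the lost ones, with 779 of 3864 lost and a median of -0.50. Other intergenic nucleosomes held 29.2% of the lost ones (1147 of 5804, median -0.29). The first 150 bp of ORFs had a median of 0.23 and the last 150 bp one of 0.09; both turn negative, to -0.15 and -0.30, when libraries are scaled to the median ORF body.

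**Figure D2:**
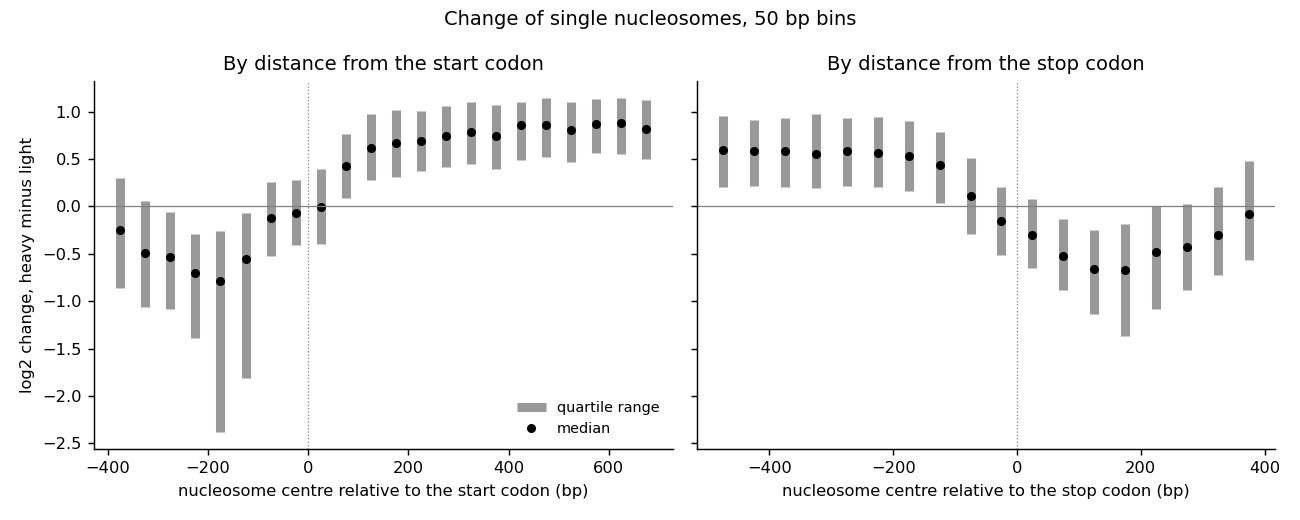
Log2 change of single nucleosomes, heavy minus light (vertical axis), in 50 bp bins of distance of the nucleosome centre from the start codon of ORFs of at least 1000 bp (left) and from the stop codon of all ORFs (right); dots are medians and grey bars quartile ranges. The median is lowest, at -0.79, in the bin from 200 to 150 bp upstream of the start codon, near 0 in the first 50 bp of the ORF, and 0.61 or more from 100 bp past the start codon on; before the stop codon it is 0.44, 0.11 and -0.15 in the last 3 bins of the ORF.

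The change ran in steps across the gene start. In ORFs of at least 1000 bp, nucleosomes centred 200 to 150 bp upstream of the start codon had a median log2 change of -0.79 with a lower quartile of -2.38, and 261 of 611 were lost. Those centred within the first 50 bp of the ORF, where +1 nucleosomes lie in many genes, had a median of -0.01, with 42 of 1396 lost and 52 gained. From 50 to 100 bp the median was 0.42, and from 600 to 650 bp it was 0.88, with 415 of 1061 gained. Past the stop codon of ORFs of any length, the lowest medians were -0.66 at 100 to 150 bp and -0.67 at 150 to 200 bp, with 305 of 874 lost in the second of these bins. Both bins can also hold nucleosomes upstream of another gene, such as that of SSB1, 179 bp past the stop codon of PTP1. Nucleosomes up to 250 bp past a stop codon and not upstream of another gene had a median of -0.50, with 779 of 3864 lost. The loss upstream was uneven, with the lower quartile far below the median.

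The 5 most lost nucleosomes, at most 1 for each nearest ORF and averaging 0.5 or more over the 4 libraries, fell to almost nothing. Upstream of RPL22A, a gene for a protein of the large ribosomal subunit, the nucleosome centred at -168 bp (chromosome XII, 262986 to 263066, build sacCer3) had a relative coverage of 0.0188 and 0.0491 in the heavy libraries, against 3.22 and 5.83 in the light libraries. The log2 change was -5.06 (limma, SE 0.24, adjusted p 9.4e-08). SSB1, coding for a ribosome-associated Hsp70 chaperone, had at -179 bp (chromosome IV, 43846 to 43926) 0.00402 and 0.0423 in the heavy libraries, against 3.00 and 5.25 in the light libraries. In both genes the heavy libraries were far below the light ones, and at SSB1 the neighbouring peak on either side was present at both doses.

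DBP2, an RNA helicase gene, had at -200 bp (chromosome XIV, 413399 to 413479) 0.00882 and 0.0425 in the heavy libraries, against 3.74 and 4.47 in the light libraries. TFC4 codes for a subunit of TFIIIC, an assembly factor of RNA polymerase III; its nucleosome at -158 bp (chromosome VII, 589587 to 589667) had 0.0163 and 0.0482 in the heavy libraries, against 3.27 and 5.70 in the light libraries. The intergenic nucleosome nearest to SKN7, a stress transcription factor gene, lay at -495 bp (chromosome VIII, 512197 to 512277) and had 0.00893 and 0.0105 in the heavy libraries, against 2.49 and 5.31 in the light libraries. The log2 changes of these 4 other nucleosomes lay between -5.09 and -5.07. Heavy coverage at the 5 sites was 1.28 to 6.22 fragments per base, so the order of the heavy values among the sites rests on few fragments.

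The 5 most gained nucleosomes lay inside ORFs, between 139 and 419 bp past the start codon. ARE1, coding for a sterol acyltransferase, had at 139 bp (chromosome III, 212028 to 212108) 1.18 and 1.10 in the heavy libraries, against 0.159 and 0.0571 in the light libraries; it rose by 2.62 on the log2 scale (limma, SE 0.21, adjusted p 4.2e-06). MPP10, coding for a part of the complex that processes the small-subunit ribosomal RNA, had at 348 bp (chromosome X, 439173 to 439253) 1.58 and 1.30 in the heavy libraries, against 0.241 and 0.221 in the light libraries. SRM1, the gene for the exchange factor of the Ran homologue, had at 331 bp 1.48 and 1.10 in the heavy libraries, against 0.214 and 0.166 in the light libraries. Each heavy value exceeded both light values.

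SIP1, the gene for a subunit of the Snf1 kinase complex, had at 419 bp 1.47 and 1.28 in the heavy libraries, against 0.265 and 0.170 in the light libraries. SQT1, which codes for a chaperone of a ribosomal protein, had at 341 bp 1.14 and 0.878 in the heavy libraries, against 0.194 and 0.103 in the light libraries. Of the 5 most gained, the log2 changes other than that of ARE1 ran from 2.17 to 2.25. Gains were therefore smaller on the log2 scale than the largest losses: the highest gain over all nucleosomes was 2.62 and the lowest loss -5.09.

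**Figure D3:**
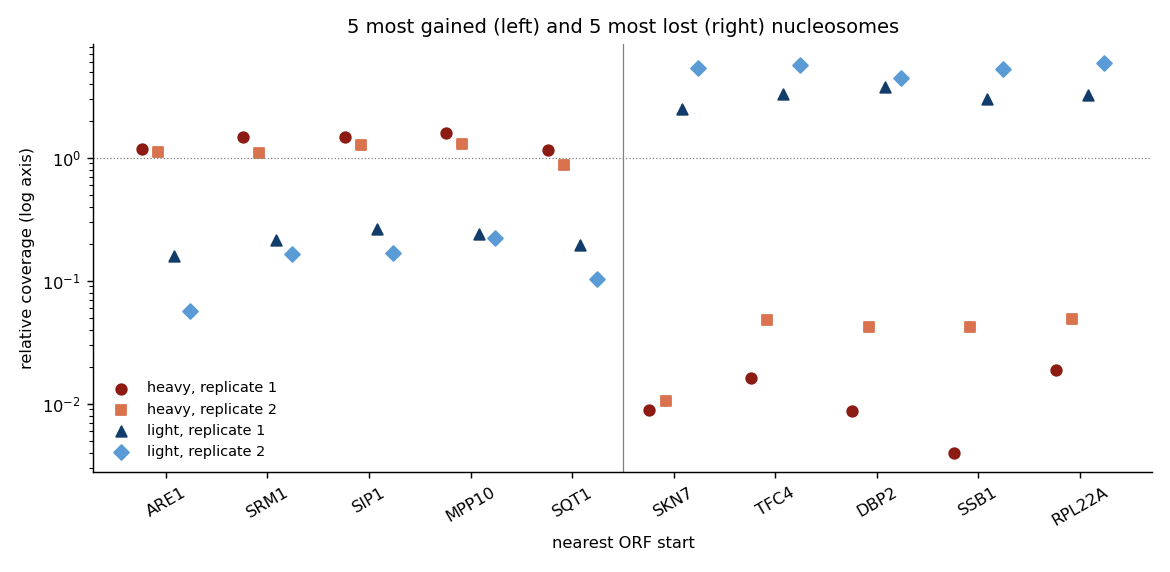
Relative coverage (vertical axis, log scale) of the 5 most gained (left) and 5 most lost (right) nucleosomes in the 2 heavy libraries (circles and squares) and the 2 light libraries (triangles and diamonds), named by the nearest ORF start. Gained sites reach about 1 in the heavy libraries, and lost sites lie under 0.05 there and between 2.49 and 5.83 in the light libraries.

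**Figure D4:**
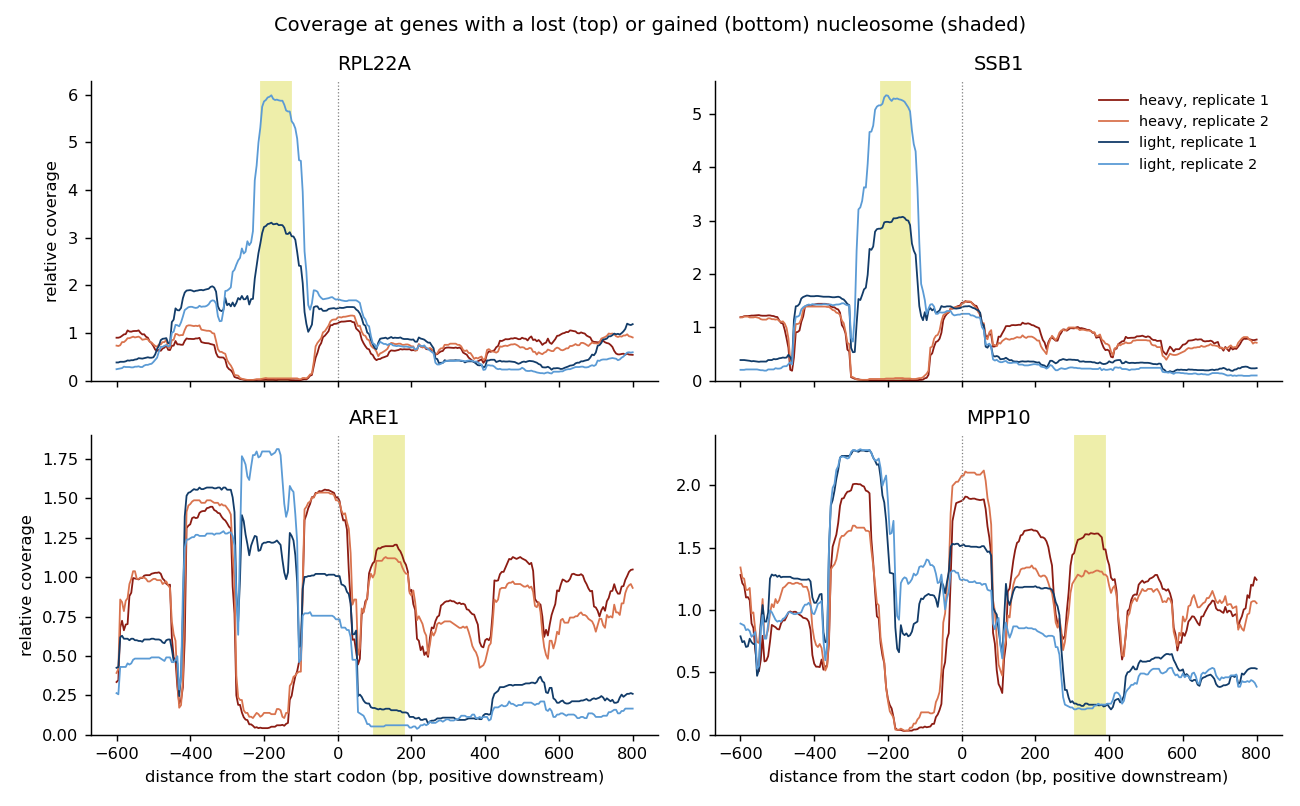
Relative coverage (vertical axis) against distance in bp from the start codon at RPL22A and SSB1 (top, lost nucleosome) and ARE1 and MPP10 (bottom, gained nucleosome), with the scored window shaded. The heavy libraries fall to near 0 in the shaded window at RPL22A and SSB1, and the light libraries are low over the shaded window at ARE1 and MPP10.

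Loss upstream was spread over many genes: 1349 of 4742 ORFs with an upstream nucleosome had at least 1 that was lost (28.4%), and 3582 of 5860 ORFs with a nucleosome inside had at least 1 gained (61.1%). For gene classes, 20 lists are described by counts and medians beside those of all genes, with no test of the lists. Over all promoters 78.6% were lower, 32.7% lost and 3.14% higher, and over all bodies 70.1% were higher and 9.37% lower; a list's counts are to be read against these shares.

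Cytosolic ribosomal protein genes, among the most transcribed genes in growing yeast, had the lowest promoter median of the 20 lists. Their median promoter had a relative coverage of 0.362 and 0.397 in the heavy libraries, against 1.55 and 1.53 in the light libraries. Of 137 promoters, 124 were lower and 117 were lost, with a median log2 change of -1.79 beside -0.77 over all promoters. RPL8A was the lowest, with 0.220 and 0.194 in the heavy libraries, against 2.05 and 2.86 in the light libraries (log2 change -3.04, limma, SE 0.16, adjusted p 9.8e-14). RPL14A was the middle member, with 0.259 and 0.218 in the heavy libraries, against 1.23 and 0.923 in the light libraries (log2 change -1.79). At the level of single nucleosomes, 104 of 149 upstream ones were lost (69.8%, beside 23.7% of all upstream nucleosomes), and their median was 0.0555 and 0.137 in the heavy libraries, against 1.84 and 1.71 in the light libraries. Relative to the nuclear mean, 126 of 137 bodies were higher and 0 lower, with a median of 0.55 beside 0.38 over all bodies. Scaled to the median ORF body, 67 were higher and 11 lower, with a median of 0.19.

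Under the nuclear mean 8 of the 137 ribosomal protein promoters rose, and 4 were higher when libraries were scaled to the median ORF body. The 8 were RPS29A, RPS29B, RPS26A, RPS26B, RPS8B, RPS22B, RPL24B and RPL32, of which 2 were gained. RPS29A had the largest increase of the list, with 0.790 and 0.664 in the heavy libraries, against 0.308 and 0.247 in the light libraries (log2 change 1.13, limma, SE 0.15, adjusted p 3.9e-07), and no other ORF covered its promoter. These genes except RPS29A were named after their values were seen. Many ribosomal protein genes have a near-identical copy, and how the authors counted fragments that map to more than 1 place is not given in the sources used here, so values inside the duplicated bodies are uncertain.

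Ribosome biogenesis genes, which code for the factors that build ribosomes, also had a promoter median below that of all genes. Of 102 promoters, 92 were lower (90.2%), 52 lost (51.0%) and 0 higher, with a median of -1.01. PNO1, for a pre-ribosomal RNA-binding protein, had 0.419 and 0.459 in the heavy libraries, against 1.99 and 3.37 in the light libraries (log2 change -2.32). SDA1, in the middle, had a promoter log2 change of -1.01, while KRE33 had the highest, 0.33, which did not pass the threshold (limma adjusted p 0.057). Upstream nucleosomes were lost in 48 of 99 cases (48.5%). Mitochondrial ribosomal protein genes stood closer to all genes, with 59 of 70 promoters lower (84.3%), 27 lost (38.6%) and a median of -0.85; 13 of their 54 upstream nucleosomes were lost (24.1%).

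Genes of energy metabolism in galactose lost much of their promoter coverage. In the respiratory chain and ATP synthase list, 38 of 40 promoters were lower and 23 lost, with a median of -1.11. COX7, for a subunit of cytochrome c oxidase, had 0.332 and 0.419 in the heavy libraries, against 1.61 and 3.05 in the light libraries (log2 change -2.29), and CYT1, for cytochrome c1, was in the middle with -1.13. COX4, for another subunit of that oxidase, was the only promoter of this list that was higher past the threshold (0.35, limma adjusted p 0.031), and it is at -0.015 when libraries are scaled to the median ORF body. Among 18 glycolytic and fermentation genes, 16 promoters were lower and 9 lost (median -0.99), from TPI1, triosephosphate isomerase, at -2.06 through CDC19, pyruvate kinase, at -1.06 to TDH1 at -0.30, which did not pass (limma adjusted p 0.060). Scaled to the median ORF body, 16 of the bodies of these 18 genes were higher, with a median of 0.53. Under the nuclear mean all 18 were higher, with a median of 0.87. That was the highest body median of the 20 lists, and 82 of 139 nucleosomes in these ORFs were gained (59.0%, beside 21.8% of all nucleosomes in ORFs). Their median was 0.913 and 0.873 in the heavy libraries, against 0.424 and 0.299 in the light libraries.

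The GAL genes, which galactose switches on, had 10 of 11 promoters lower, 7 lost and 0 higher, with a median of -1.07 and a quartile range from -2.45 to -0.62. The GAL10 promoter, which lies between GAL10 and GAL1 and shares fragments with that of GAL1, had 0.113 and 0.175 in the heavy libraries, against 1.48 and 2.06 in the light libraries (log2 change -2.93, limma, SE 0.17, adjusted p 3.8e-13). The body of GAL1, for galactokinase, was the only one of the list that fell past the threshold. GAL3, for the galactose sensor, was in the middle (-1.07), and GAL4, for the activator, was highest (-0.10, adjusted p 0.53). Of their 14 upstream nucleosomes, 7 were lost (50%).

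Chaperone, histone, proteasome and amino acid genes had promoter medians below that of all genes. Heat shock and chaperone genes had 24 of 27 promoters lower and 14 lost, with a median of -1.01, led by SSB1 (-2.47). Histone genes had 10 of 11 lower and 5 lost, with a median of -0.99, from HTA2 (-1.70) through HHT2 (-0.99) to HTZ1, for the variant H2A.Z, at 0.03 (adjusted p 0.84), which is at -0.34 when scaled to the median ORF body. Proteasome genes had 28 of 33 lower (84.8%) and 15 lost (45.5%), with a median of -0.87 and RPT2 lowest (-2.16). Their upstream nucleosomes had a median of -0.13, nearer to 0 than the -0.39 of all upstream nucleosomes, with 8 of 28 lost (28.6%). In amino acid biosynthesis, 56 of 64 were lower (87.5%) and 24 lost (37.5%), with a median of -0.87 and ARG3, ornithine carbamoyltransferase, lowest at 0.0655 and 0.129 in the heavy libraries, against 1.50 and 1.52 in the light libraries. The cell wall list had 23 of 32 lower (71.9%) and 13 lost (40.6%), with a median of -0.90, and its lowest member was CCW12, for a cell wall mannoprotein, at 0.0962 and 0.114 in the heavy libraries, against 1.49 and 1.75 in the light libraries. The bodies of ARG3 (-0.29, limma adjusted p 0.016) and CCW12 (-0.56, limma adjusted p 0.017) were lower as well.

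Hexose transporter, glucose-repressed carbon and meiosis genes had promoter medians above that of all genes. Hexose transporter promoters had a median of -0.37, with 10 of 16 lower and 0 lost, and 0 of their 21 upstream nucleosomes were lost. HXT5 was lowest (-0.77) and HXT9 in the middle (-0.40). Glucose-repressed carbon genes had a median of -0.46, with 17 of 27 lower and 3 lost, and 2 of 30 upstream nucleosomes were lost (6.67%). Meiosis and sporulation genes had a median of -0.58, with 41 of 64 promoters lower and 12 lost, and 8 of 66 upstream nucleosomes were lost (12.1%). HOP1, a meiotic chromosome axis gene, was the lowest of them, with 0.974 and 1.12 in the heavy libraries, against 2.95 and 3.33 in the light libraries (log2 change -1.50), and so was near the library average after heavy digestion.

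In bodies, the meiosis list had the lowest median of the 20 lists. Of 64, 26 were higher and 11 lower, with a median of 0.10. Scaling to the median ORF body reverses that balance, to 5 higher and 39 lower with a median of -0.28. Of the nucleosomes in these ORFs, 40 of 521 were gained (7.68%, beside 21.8% of all). Their median was 1.31 and 1.32 in the heavy libraries, against 1.10 and 1.06 in the light libraries. Body medians of the hexose transporters (0.28), histone genes (0.26), mating genes (0.27), mitochondrial ribosomal protein genes (0.34) and phosphate regulon genes (0.37) also turn negative under that scaling, whereas those of the other 14 lists stay above 0. Cell cycle genes had 24 of 33 promoters lower (72.7%) and 8 lost (24.2%), with a median of -0.50, and 4 of 46 upstream nucleosomes lost (8.70%).

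The phosphate regulon, general stress, mating and RNA polymerase II lists had promoter medians of -0.82, -0.65, -0.75 and -0.73. PHO84, for the high-affinity phosphate transporter, was the highest of the phosphate list, with 1.07 and 1.15 in the heavy libraries, against 0.690 and 0.876 in the light libraries (log2 change 0.47, adjusted p 0.0073). The seripauperin and COS families, multigene families of the chromosome ends whose copies are near-identical and so uncertain here, had the promoter median closest to 0, at -0.14, with 10 of 36 lower and 6 higher; that median is 0.034 over the members with no ORF within 300 bp upstream. Scaled to the median ORF body, 22 of these promoters were lower and 1 higher, with a median of -0.50 beside -1.15 over all promoters. Their bodies had a median of 0.72, with 34 of 36 higher, and under the other scaling a median of 0.36, with 22 higher and 3 lower. PAU9 had the highest promoter of the list (1.13) and was also among the 6 most increased bodies of all genes. The lowest promoter of the list was that of COS111 (-1.36). This gene lies at 629168 to 631942 of the 813184 bp of chromosome II, so not at a chromosome end. It may share only its name with the COS family, and the counts of the list include it.

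**Figure D5:**
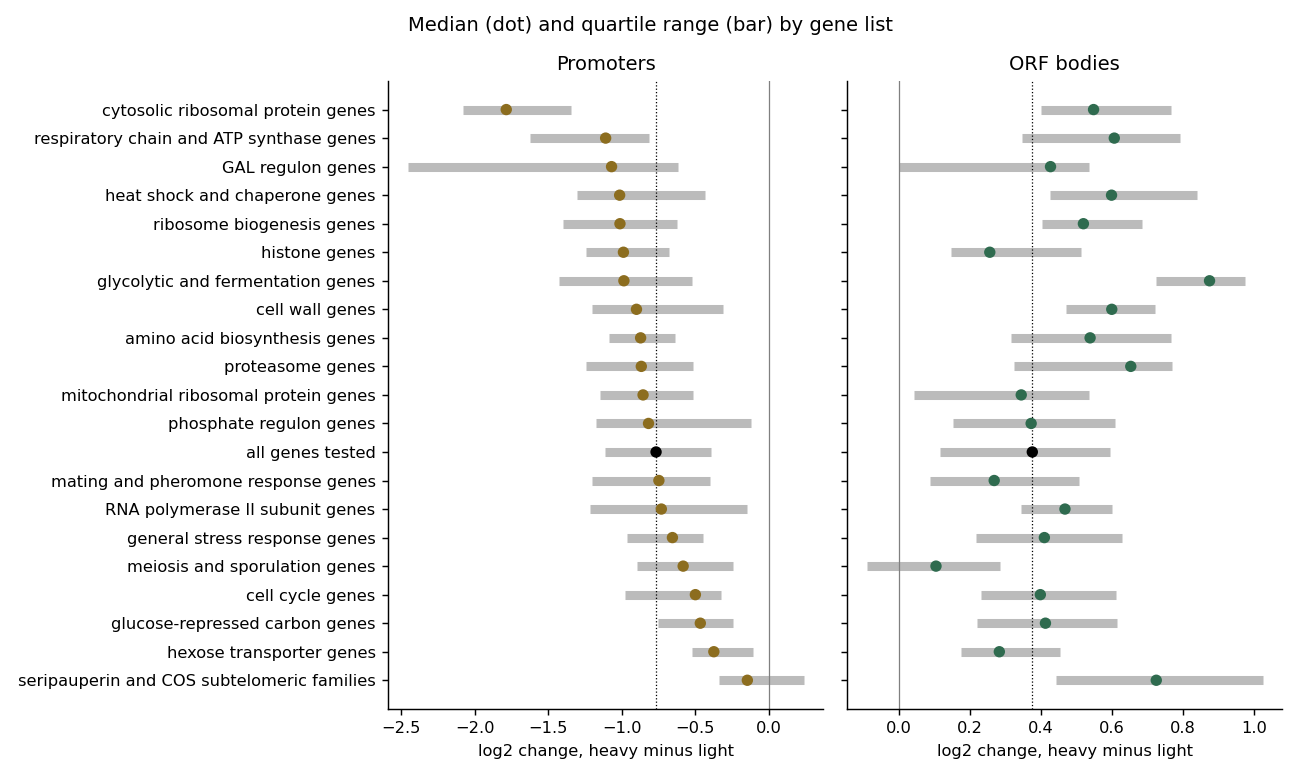
Log2 change of relative coverage, heavy minus light (horizontal axis), for promoters (left) and ORF bodies (right) of 20 gene lists, ordered by promoter median; dots are medians, bars quartile ranges, and the dotted line is the median of all genes. Cytosolic ribosomal protein genes are lowest among promoters (-1.79) and glycolytic genes highest among bodies (0.87); scaling to the median ORF body shifts the median of all bodies by -0.372 and turns the body medians of 6 lists negative.

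The promoters with the largest losses belonged to short ORFs. YCL042W (360 bp, chromosome III, ORF at 50584 to 50943) had 0.0264 and 0.0650 in the heavy libraries, against 1.79 and 2.52 in the light libraries (log2 change -3.94, limma, SE 0.17, adjusted p 5.8e-15). YCR085W (-3.61), YBL071C-B (-3.56), IRC13 (-3.55), YLR111W (-3.45) and YBL044W (-3.41) followed, with values of 0.0283 to 0.113 in the heavy libraries, against 1.49 to 2.26 in the light libraries. The gene on their upstream side was PDI1, TUP1, KTI11, RPL33B, CCW12 and COR1, in that order of the ORFs. None of these 6 promoters overlapped another ORF, but each lay in the gap that it shares with that divergent neighbour, so YLR111W and CCW12 have fragments in common.

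Promoters with the largest gains mostly lay inside another ORF. JIP3 had 0.938 and 0.786 in the heavy libraries, against 0.248 and 0.231 in the light libraries (log2 change 1.50, limma, SE 0.15, adjusted p 4.5e-09), and all of its promoter lay in another ORF; the ORF on that side is MID2. The promoters of YGL235W (1.33, beside MTO1), VAM10 (1.28, beside VPS5) and YBR219C (1.27, beside YBR220C) also lay wholly in another ORF, YAL064W-B (1.21) by 62.4%, and RPS29A (1.13) by 0%. Over all genes, 3.21% of promoters were covered by another ORF over at least 50% of their length, beside 27.8% of the higher, 8 of the 13 gained and 1.49% of the lost promoters. The count of 187 higher promoters depended on single libraries: it was 109 without heavy replicate 1 and 111 without heavy replicate 2. The 13 gained promoters were 7 without light replicate 2 and 29 without light replicate 1.

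Bodies that fell were likewise short and often lay before another gene. Their median length was 448.5 bp, beside 1203 bp for all ORFs tested, and 34.1% of them, and 60% of the lost ones, had their midpoint within 500 bp upstream of another start codon, beside 7.13% of all. The lowest was YOR072W-B (162 bp), upstream of SGO1, with 0.0482 and 0.109 in the heavy libraries, against 2.35 and 2.03 in the light libraries (log2 change -3.70, limma, SE 0.16, adjusted p 2.0e-04). YLR406C-A (-3.67), YGR240C-A (-3.59), YBR196C-A (-3.20, upstream of PGI1), BRP1 (-3.16) and YCR025C (-3.15) followed. The 558 lower bodies became 151 when the first and last 150 bp of each ORF were left out. That setting kept only ORFs with at least 150 bp remaining, so many of the short lower bodies were not tested in it.

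The largest body gains were in genes of several functions and of 129 to 1833 bp. ARE1 had 0.907 and 0.842 in the heavy libraries, against 0.317 and 0.219 in the light libraries (log2 change 1.42, limma, SE 0.13, adjusted p 5.0e-04). NAP1, a histone chaperone gene, had 0.894 and 0.816 in the heavy libraries, against 0.309 and 0.227 in the light libraries (1.38). OPI1, for a repressor of phospholipid synthesis genes, followed with 1.36, SLO1 with 1.35, PAU9 with 1.32 and MRPL28, a mitochondrial ribosomal protein gene, with 1.29. The highest of the 6 in a heavy library was MRPL28 at 1.12. The count of 130 gained bodies depended on single libraries: it was 50 without light replicate 2, 299 without light replicate 1, 85 without heavy replicate 1 and 198 without heavy replicate 2.

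Transfer RNA genes, short genes transcribed by RNA polymerase III and bound by TFIIIC and TFIIIB, had the largest share of lost members of the classes described here, 97.4%. Their median was 0.106 and 0.230 in the heavy libraries, against 1.59 and 1.65 in the light libraries. Of 272 tested in a table with all ORF bodies, 270 were lower (beside 13% of all features of that table), 265 were lost (5.8%) and 0 were higher, by limma, with a median log2 change of -2.74. The lowest was YNCL0008W (chromosome XII, 427132 to 427203), with 0.0723 and 0.138 in the heavy libraries, against 3.66 and 4.63 in the light libraries (log2 change -4.38). YNCK0008W and YNCN0006W did not pass (adjusted p 0.091 and 0.081) and were named after their values were seen, as was IMT3, an initiator methionine tRNA gene that fell by 0.85. Nucleosomes called within 150 bp of a tRNA gene were 0.452% of all and 6.36% of the lost ones: 250 of 298 were lost, with a median of -2.66. tRNA genes that have several identical copies share fragments, which makes single values uncertain.

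Small nucleolar RNA genes, most of which guide ribosomal RNA modification, showed no common direction. Of 76, 21 were lower and 20 higher, with a median of -0.08; scaled to the median ORF body, 46 were lower and 6 higher. Without heavy replicate 1 both counts were 13, and without heavy replicate 2 both were 14. SNR52, which RNA polymerase III transcribes, was the only one lost, with 0.396 and 0.524 in the heavy libraries, against 1.54 and 1.26 in the light libraries (log2 change -1.43, limma, SE 0.15, adjusted p 0.0020). SNR78 was the only one gained (2.08% of all features of that table were), with 0.723 and 0.672 in the heavy libraries, against 0.296 and 0.230 in the light libraries (1.14, limma adjusted p 0.0019). SNR72, of the same cluster on chromosome XIII as SNR78, fell by 0.85. These 3 genes were named after their values were seen.

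The 2 heavy libraries differed in fragment length, whereas the 2 light libraries were alike in fragment length. In log2 relative coverage of promoters the light libraries agreed less, with r of 0.891 between them, against 0.957 between the heavy libraries. Heavy replicate 2 had longer fragments than heavy replicate 1, and its coverage lay between heavy replicate 1 and both light libraries for 90.8% of lost promoters, 88.4% of lost nucleosomes and 83.1% of gained nucleosomes, beside 77.4% of all promoters and 63.7% of all nucleosomes. Lost nucleosomes had a median log2 change of -2.09 in heavy replicate 1 and -1.77 in heavy replicate 2, each against the light mean. The same libraries entered the calls.

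An untreated strain with OsTIR1 gave 1 library of each dose that took no part in the calls and whose label matches its file name. In that pair, 100% of the 1945 lost promoters were lower in heavy digestion, beside 91.0% of all promoters, and 100% of the 3930 lost nucleosomes were lower, beside 28.9% of all nucleosomes. Of the gained nucleosomes, 99.99% were higher there, beside 71.1% of all. In the pair, 76.5% of the lost nucleosomes were lower by 2-fold or more, and 52.8% of the gained ones higher by 2-fold or more; over all nucleosomes these shares were 4.72% and 10.3%. With 1 library a dose, the pair has no replicate check and no test was made.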

How the data were processed

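DNA fragments left by micrococcal nuclease were sequenced. Per the submitters' processing notes, the reads were aligned with Bowtie2 to build sacCer3. The deposited files hold, for 17 contigs, the fragment coverage of every base as whole numbers (a coverage signal, not normalized) and the fragment number. The authors kept fragments of 95 to 225 bp, per the deposited files, which limits the lengths that can be compared. Fragments shorter than 95 bp are not seen, so a lost site is one that lost fragments of the kept lengths. The part of shorter fragments in the losses was not tested. Treatment of duplicates and multiple mapping is not given in the sources used here.

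Coverage was divided by the library's nuclear mean without the rDNA. Gene positions came from RefSeq R64, the assembly of sacCer3, with strand read from the locus tag; 5960 of 6002 nuclear ORFs were kept (19 in the rDNA and 23 within 1000 bp of a contig end left out). Nucleosomes were maxima of the 4-library mean smoothed over 75 bp, at least 120 bp apart, and were scored over 40 bp to either side (66003 called). Features with a mean of at least 0.1 were tested with limma 3.58.1 (lmFit, eBayes; R 4.3.3) on log2(relative coverage + 0.1), 2 heavy against 2 light libraries, with two-sided p-values adjusted by Benjamini-Hochberg over all features tested and a threshold of 0.05. Log2 changes are on that scale and understate changes of low levels. On simulated data with 200 changed features, the limma fit recovered 100% of 2-fold and 4-fold changes of promoters, bodies and nucleosomes. It also called 10 unchanged promoters, 10 unchanged bodies and 40 unchanged nucleosomes. The simulation drew normal noise from the fitted SDs and changed far fewer features than were called in the data. Recovery under the conditions of the data was therefore not tested. Python 3.11.15, numpy 2.4.6, scipy 1.17.1 and pandas 2.3.3 were used.

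Named promoters and bodies were the 6 largest increases and 6 largest decreases past the threshold with a mean of at least 0.5, named nucleosomes the 5 and 5 by the same rule, and, for each of 20 gene lists, the promoters with the lowest, middle and highest change. The lists matched all names but MEL1 and HXT12. In the ribosome biogenesis list and in the respiratory list, 1 name pointed to a gene already on the same list. Members and lists were chosen with earlier results of these data known. Alternatives varied the pseudocount, filter, scaling, feature windows, nucleosome calling, limma settings, replicate block and libraries. Sequence was not used here, so the part of base composition in the changes between doses was not examined. In all, 4 of the 11 libraries have labels at odds with their file names and were not analysed here, and the remaining 3 with OsTIR1 entered 1 alternative; 2 of these gave the pair described at the end.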

Additional observations from a re-analysis of the deposited data

Results flagged for a closer look

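Mitochondrial DNA and the ribosomal DNA repeat lay outside the comparisons and differed between the doses. Mitochondrial fragments made up 0.129% and 0.0750% of the heavy libraries, against 5.53% and 20.6% of the light libraries; the means were 0.102% and 13.1%. The mitochondrial genome has no nucleosomes. The rDNA had a relative coverage of 12.8 and 19.8 in the heavy libraries, against 27.9 and 31.4 in the light libraries, with means of 16.3 and 29.6. Neither measure overlapped between the doses (exact permutation p 0.3333 for each, which is the minimum for 2 against 2 libraries). Both were left out of the mean that scales the other values, and their part in the results was not tested.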

How the results depend on the processing

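Leaving out each library in turn gave 3910 to 4780 lower, 109 to 241 higher, 1619 to 2257 lost and 7 to 29 gained promoters; 323 to 591 lower, 3119 to 4351 higher, 95 to 114 lost and 50 to 299 gained bodies; 7714 to 11378 lower, 28169 to 37694 higher, 3497 to 4480 lost and 8903 to 13830 gained nucleosomes; and 262 to 272 lower tRNA genes, with 13 to 26 lower and 13 to 21 higher snoRNA genes (libraries left out of the snoRNA and tRNA fit after seeing the data). The promoter to body ratio stayed between -1.21 and -1.05 and the fragment length difference between -27.1 and -20.4 bp.

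Scaling to the median ORF body gave 48 higher, 3604 lost and 2 gained promoters; 1868 lower, 1806 higher, 198 lost and 4 gained bodies; 19304 lower, 21437 higher, 7390 lost and 3387 gained nucleosomes; and, chosen after seeing the data, 46 lower and 6 higher snoRNA genes. A pseudocount of 1 gave 246 lost and 0 gained promoters, 27 lost and 0 gained bodies, and 1777 lost and 2 gained nucleosomes, because it damps the change. The window from 200 to 50 bp upstream gave 2936 lost and 21 gained promoters, and the fewer ORFs whose upstream 300 bp are free of ORFs gave 109 higher and 5 gained. ORFs without their first and last 150 bp gave 151 lower, 11 lost and 569 gained bodies. Only ORFs with at least 150 bp remaining were tested there, which leaves out many of the short bodies that were lower or lost. Maxima of the heavy libraries gave 2566 lost nucleosomes, since positions lost after heavy digestion are found less often there. Other causes were not tested.

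Directions turned in a few cases. Scaled to the median ORF body, the promoter log2 changes of KRE33 (-0.032), HTZ1 (-0.34), SSA3 (-0.26), CTT1 (-0.031), HXT13 (-0.057), COX4 (-0.015), SER3 (-0.016), STE12 (-0.019), RPN4 (-0.086), RPO21 (-0.091) and TIR4 (-0.22) became negative, as did the body medians of mitochondrial ribosomal protein (-0.028), histone (-0.11), hexose transporter (-0.098), phosphate (-0.0018), meiosis (-0.28) and mating genes (-0.11). From 200 to 50 bp upstream, MRPL4 was at -0.31 and HTZ1 at -0.030; HTZ1 was also at -0.046 with 7 libraries and, with a library left out, between -0.042 (without heavy replicate 2) and 0.106. COS2 lay between -0.345 and 0.044 with a library left out, and was above 0 without light replicate 1, and the promoter median of the seripauperin and COS families was at 0.034 with no ORF within 300 bp upstream. The 10 named nucleosomes kept direction and call under the alternatives that keep their positions.

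The replicate numbers share only a number: deviations of same-numbered libraries correlated with r of -0.0165 over promoters, 0.097 over bodies and 0.0862 over nucleosomes. The replicate block gave 4726 lower and 203 higher promoters, 587 lower and 4256 higher bodies, 11674 lower and 37549 higher nucleosomes, and 266 lower tRNA genes. With 2 libraries a dose no single value can reach an exact p under 0.3333, and lost sites hold few fragments in the heavy libraries.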

Other observations

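By its SD, relative coverage over nucleosomes and promoters was more even after heavy digestion. Promoters with a relative coverage under 0.5 were nevertheless more frequent in the heavy libraries (11.2% and 7.47%) than in the light libraries (0.738% and 1.17%). The SD of relative coverage over nucleosomes was 0.353 and 0.360 in the heavy libraries, against 0.677 and 0.780 in the light libraries, and over promoters it was 0.287 and 0.301 in the heavy libraries, against 0.500 and 0.662 in the light libraries. Nucleosomes with a relative coverage under 0.5 made up 3.61% and 3.60% in the heavy libraries, against 17.5% and 22.9% in the light libraries. When promoters were ranked by their light level into 10 groups, the median heavy level was 0.809 in the lowest group and 1.01 in the highest, against light medians of 0.777 and 2.47 in the same groups. The ranking uses the light level itself, so the change along it is a description.

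Promoters within 20000 bp of a chromosome end had a median log2 change of -0.30, with 108 of 223 lower and 35 higher, beside -0.78 for the 5733 farther away. Promoters with 300 to 500 bp to the next ORF upstream had a median of -0.90 and 672 of 1624 were lost. Those with more than 1000 bp had a median of -0.65 with 225 of 859 lost, and those with 0 to 100 bp a median of -0.19 with 19 of 105 lost. At a gap of 0 to 100 bp, however, the 250 bp promoter window runs into the next ORF. The 191 promoters lying mostly in another ORF had a median of -0.13, beside -0.79 for the 4892 free of other ORFs. An effect of the short gap apart from this overlap was not tested. Body change differed by ORF length without a steady rise. The median was 0.07 for ORFs under 500 bp, 0.47 for those of 2000 to 4000 bp and 0.33 for those of 4000 bp or more. Relative to the median body these are -0.31, 0.09 and -0.04. Promoters with a tRNA gene within 300 bp of their centre had a median of -0.99, with 56 of 115 lost.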
